A study of Mus musculus with 6 samples.

Results

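The aldehyde and carbonyl metabolizing enzymes examined here were the protein-coding genes of 5 symbol families in GENCODE M21: the aldehyde dehydrogenases (Aldh), the aldo-keto reductases (Akr), the carbonyl reductases Cbr1 to Cbr4, the alcohol dehydrogenases (Adh) and the epoxide hydrolases (Ephx). They were chosen by symbol alone and matched by Ensembl identifier, which gave 52 of the 54886 genes listed, and all 52 were in each library. By family, 21 were aldehyde dehydrogenases, 17 aldo-keto reductases, 6 alcohol dehydrogenases, 4 carbonyl reductases and 4 epoxide hydrolases. Of the 52 genes, 26 had a mean FPKM of at least 1 over the 6 libraries and were tested. FPKM, the unit of the deposited values, scales the fragments counted on a gene by the gene's exon length and by library depth.

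Reactive aldehydes, ketones and quinones arise in cells from lipid peroxidation, amino acid and alcohol breakdown and from the oxidation of foreign compounds. Aldehyde dehydrogenases oxidize aldehydes to acids, while aldo-keto reductases and carbonyl reductases use NADPH to reduce carbonyl groups to alcohols. Alcohol dehydrogenases interconvert alcohols and aldehydes, and epoxide hydrolases open reactive epoxides such as those formed from polycyclic aromatic hydrocarbons. Several of these genes belong to the detoxification programmes of the aryl hydrocarbon receptor (AhR) and of NRF2, a transcription factor of the oxidative stress response. In the testis, retinaldehyde dehydrogenases also make the retinoic acid that germ cells need to enter meiosis.

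RNA was sequenced from GC-2spd, a mouse line derived from spermatocytes and labelled with the BALB/c strain background. The exposed group received 100 μg/mL of PM2.5 over 48 h, an urban particulate reference material suspended in PBS. The control group was untreated and kept in normal culture medium, to which PBS was added according to the study's methods. Each group held 3 libraries. Neither the labels nor the sequencing methods say whether these came from separate cultures, and the p-values measure the spread between the libraries, which may be technical. All libraries came from 1 established line. Of 13 spermatocyte and germ cell markers, 12 were under an FPKM of 1 in every library and 5 of these were at 0, the exception being Sycp3 with an FPKM of 2.56 in control replicate 2. The germ cell label was therefore not matched by its defining markers. Of the 6 fibroblast markers, 5 passed the filter, and the FPKM of the list summed to 885 to 1370 in control and to 662 to 875 in PM2.5. Within that list Col1a2 and Col3a1 had an unadjusted p under 0.05, with log2 fold changes (PM2.5 over control) of -0.66 and -0.70, and the part of these markers in the differences given here was not tested. The lists for Sertoli, Leydig and peritubular cells had 1 tested gene each, and of these Acta2 had an unadjusted p under 0.05 without control replicate 2, with a log2 fold change of 0.46.

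Whole reads recovered from the FPKM totalled between 16209352 and 18003200 per library. Control replicate 2 stood apart, with 14.5% of its reads on mitochondrial genes against 1.65% to 1.95% in the other 5 libraries. For 82.9% of all tested genes it lay outside the range of those 5. The depth implied by its deposited FPKM was below its recovered total, while in the other 5 libraries it was above. The same share of recovered reads thus gave a higher FPKM in control replicate 2. Its FPKM summed to 579133, against 261945 to 282798 in the other 5 libraries. PM2.5 replicate 3 was outside the range of the rest for 40.3% of tested genes. Comparisons of PM2.5 with control for the enzyme genes that passed the filter are therefore given with all 6 libraries and without control replicate 2. Log2 fold changes are on the log2(FPKM + 1) scale, PM2.5 minus control, and this pseudocount of 1 understates the change of genes with a low FPKM.

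Cbr3 and Akr1cl had the largest fold differences between the group means among the 26 tested enzyme genes. Cbr3 was higher and Akr1cl was lower in all 3 PM2.5 libraries than in any control library. With all 6 libraries neither Cbr3 nor Akr1cl had a Benjamini-Hochberg adjusted p under 0.05 in limma, where 0.0926% of all tested genes did. After control replicate 2 was left out, 0.993% of all tested genes had such a value, and the adjusted p was 0.110 for Cbr3 and 0.0652 for Akr1cl. Adh7 lay below the filter and exceeded an FPKM of 1 only in the PM2.5 libraries, so it is not ranked with these genes and is described by its reads. The 250 bases before the RefSeq start site of each of these 3 genes are shown, and the genes were picked after their differences were seen. Each reads 5′ to 3′ on the strand of its gene in GRCm38.p6, at chr16:93682969-93683218 on the plus strand for Cbr3, chr1:65032760-65033009 on the minus strand for Akr1cl and chr3:138217523-138217772 on the plus strand for Adh7. Capitals mark a match to TGACNNNGC, the core of the antioxidant response element bound by NRF2, in Akr1cl and a match to TGANTCA, the AP-1 element, in Adh7.
Cbr3: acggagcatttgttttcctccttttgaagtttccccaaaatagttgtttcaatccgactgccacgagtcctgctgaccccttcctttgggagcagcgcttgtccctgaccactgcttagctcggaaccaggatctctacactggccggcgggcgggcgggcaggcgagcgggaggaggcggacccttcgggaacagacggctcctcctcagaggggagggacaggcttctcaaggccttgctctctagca
Akr1cl: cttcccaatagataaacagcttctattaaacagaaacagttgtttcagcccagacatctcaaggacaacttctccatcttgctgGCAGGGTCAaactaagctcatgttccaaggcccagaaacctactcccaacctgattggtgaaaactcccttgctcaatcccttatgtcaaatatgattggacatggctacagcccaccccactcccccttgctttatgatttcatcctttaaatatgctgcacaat
Adh7: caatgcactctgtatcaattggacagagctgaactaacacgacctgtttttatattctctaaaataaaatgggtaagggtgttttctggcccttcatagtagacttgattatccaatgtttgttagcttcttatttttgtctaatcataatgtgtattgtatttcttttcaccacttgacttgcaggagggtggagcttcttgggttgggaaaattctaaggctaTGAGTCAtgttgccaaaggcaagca

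The motifs were searched on both strands from 250 bases before to 50 bases after each RefSeq start site, and 42 of the 52 enzyme genes had such a promoter. TGACNNNGC was found in 12.4% of all 32851 promoters and in 5 of the 42 genes, namely Akr1cl, Aldh9a1, Aldh1a2, Adh6a and Akr1c19. In Akr1cl it began 166 bases before the start site and ran on the strand opposite to the gene. GCGTG, the core of the xenobiotic response element bound by AhR with ARNT, was found in 32.4% of all promoters and in 14 of the 42 genes, among them Cbr1, Akr1b8, Akr7a5 and Aldh18a1. The match in Adh7 began at base 13 after the start site and so lies past the bases shown. TGANTCA was added after the promoter of Adh7 had been read, and was found in 7.81% of all promoters and in 3 of the 42 genes, Adh7, Aldh1a1 and Ephx3. It can overlap a match to TGACNNNGC where both begin with the same bases. The window of Cbr3 held none of these 3 sets of letters, which says nothing about the factors themselves.

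The 26 tested genes spanned a wide range of levels. Akr1a1, aldehyde reductase, was the highest of all, with an FPKM of 134, 104 and 139 in control replicates 1 to 3 and of 134, 136 and 139 in PM2.5 replicates 1 to 3. The groups overlapped, and their means differed by less than the spread between the control libraries, at 126 ± 19.0 (SD, n = 3) in control and 136 ± 2.34 (SD, n = 3) in PM2.5. For Akr1a1 the log2 fold change was 0.13 (SE 0.23) with all libraries and -0.0017 (SE 0.09) without control replicate 2. Aldh18a1, which makes the precursor of proline, and Akr1b8, an aldose reductase-like enzyme, followed with mean FPKM between 41.4 and 51.7 in both groups. At the other end, Cbr4 and Akr1c13 were the nearest genes above the filter, with a mean FPKM over all libraries of 1.08 and 1.32, and Aldh1l1 and Adh7 were the nearest below it, with 0.943 and 0.816. In the plot of FPKM by gene, control replicate 2 often lies away from the other libraries.

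**Figure D1:**
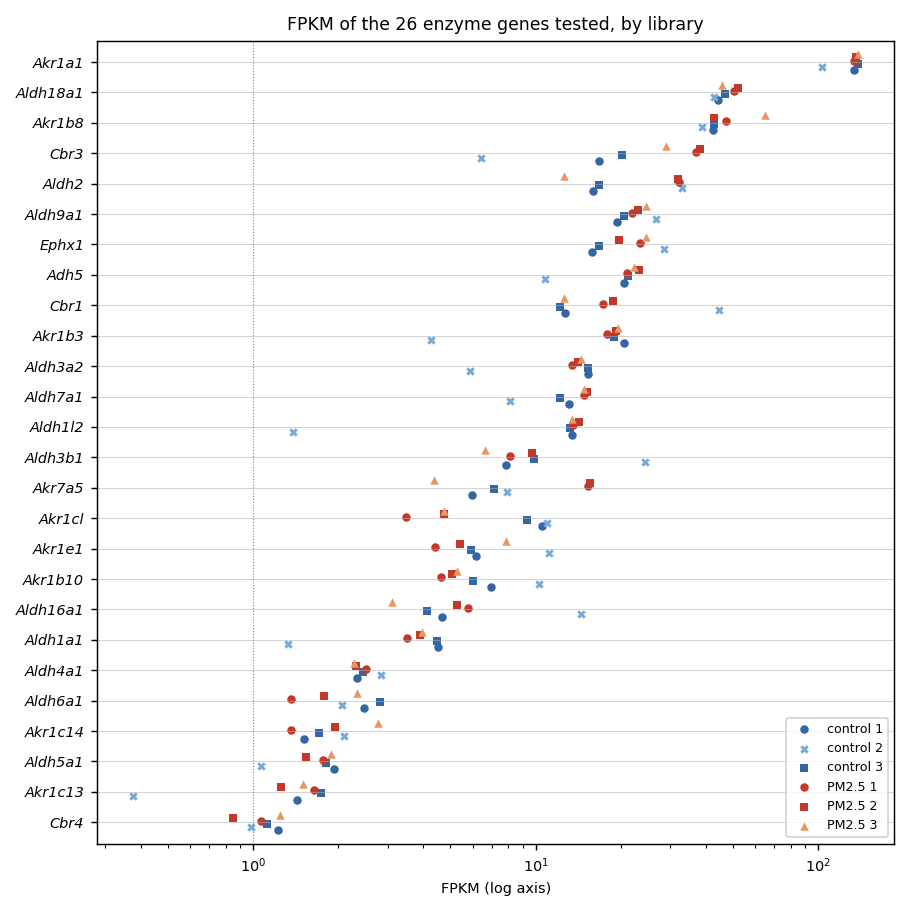
FPKM (log axis) of the 26 enzyme genes tested, ordered by mean level, with 1 marker for each library and a dotted line at the filter of 1. Akr1a1 lies between 104 and 139 in all 6 libraries, while the cross of control replicate 2 lies far to the left for Aldh1l2 at 1.39 and far to the right for Cbr1 at 44.6.

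Among the carbonyl reductases, Cbr3 (ENSMUSG00000022947, chr16:93683215-93690990, plus strand) had the largest positive difference of the tested genes. This NADPH-dependent enzyme reduces carbonyl compounds and quinones and is close in sequence to Cbr1. In control its FPKM was 16.7, 6.39 and 20.3, and in PM2.5 it was 36.9, 38.4 and 29.0. Every PM2.5 library was above every control library, and control replicate 2 was the lowest of all. The mean was 14.5 ± 7.20 (SD, n = 3) in control and 34.8 ± 5.05 (SD, n = 3) in PM2.5, 2.40-fold higher, and 1.88-fold higher without control replicate 2. In limma the log2 fold change was 1.34 (SE 0.43, unadjusted p = 0.0201, adjusted p = 0.875) with all 6 libraries and 0.87 (SE 0.16, adjusted p = 0.110) without control replicate 2, so that it did not pass the threshold of 0.05 in either. In these bulk libraries a change in the level per cell and a change in the share of cells that express a gene cannot be told apart.

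Cbr1 (chr16:93605853-93610505, plus strand), on the same chromosome, is the broad carbonyl reductase that acts on quinones and prostaglandins. It had an FPKM of 12.7, 44.6 and 12.2 in control and of 17.4, 18.8 and 12.6 in PM2.5. Control replicate 2 was above every other library, and PM2.5 replicate 3 lay with the other controls, so that the groups overlapped with and without control replicate 2. For Cbr1 the log2 fold change was -0.25 (SE 0.52, adjusted p = 0.902) with all libraries and 0.34 (SE 0.18, adjusted p = 0.443) without control replicate 2. Control replicate 2 thus had the lowest Cbr3 and the highest Cbr1 of the 6 libraries. Of the 31-base sequences of Cbr3, 2.31% were shared with another gene, against 7.83% for Cbr1. Cbr4, a mitochondrial reductase of fatty acid synthesis, lay between 0.846 and 1.25 in all libraries, with a log2 fold change of -0.04 with all libraries and -0.08 without control replicate 2.

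Of the 9 aldo-keto reductases tested, Akr1cl (ENSMUSG00000025955, chr1:65012689-65032759, minus strand), a gene of the AKR1C-like type, had the largest difference in the negative direction. Its FPKM was 10.5, 11.01 and 9.32 in control and 3.48, 4.74 and 4.76 in PM2.5. The groups were well apart, and control replicate 2 lay close to the other control libraries. The mean was 10.3 ± 0.873 (SD, n = 3) in control and 4.33 ± 0.731 (SD, n = 3) in PM2.5, which made the control level 2.38-fold higher, or 2.29-fold without control replicate 2. The log2 fold change was -1.09 (SE 0.19, unadjusted p = 0.00114, adjusted p = 0.304) with all libraries and -1.04 (SE 0.15, adjusted p = 0.0652) without control replicate 2. Of its 31-base sequences, 13.0% were shared with other genes, mainly Gm8550 on the opposite strand, which had at most 3 reads in any library.

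The aldose reductase branch on chromosome 6 holds Akr1b3, the mouse aldose reductase of the polyol pathway, with the related Akr1b8 and Akr1b10. Akr1b10 had an FPKM of 6.95, 10.3 and 5.99 in control and of 4.62, 5.07 and 5.29 in PM2.5. Every PM2.5 library was below every control library, but the gap between PM2.5 replicate 3 and control replicate 3 was small. The log2 fold change was -0.52 (SE 0.23, adjusted p = 0.875) with all libraries and -0.32 (SE 0.11, adjusted p = 0.270) without control replicate 2. Akr1b8 had an FPKM of 42.5, 38.8 and 42.9 in control and of 47.1, 42.8 and 65.1 in PM2.5. The groups overlapped, with PM2.5 replicate 3 well above the rest, and the log2 fold change was 0.29 (SE 0.23) with all libraries and 0.25 (SE 0.20) without control replicate 2. Akr1b3 had an FPKM of 20.6, 4.28 and 18.9 in control and of 17.9, 19.2 and 19.6 in PM2.5. Control replicate 2 was far below the rest, and the log2 fold change of 0.60 (SE 0.56) with all libraries became -0.06 (SE 0.09) without it. These 3 genes thus had no common direction, and 5.63% to 15.2% of their 31-base sequences were shared with other genes.

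Akr7a5, an aflatoxin aldehyde reductase that also reduces succinic semialdehyde, showed another pattern. It had an FPKM of 5.98, 7.91 and 7.11 in control and of 15.4, 15.6 and 4.38 in PM2.5. PM2.5 replicates 1 and 2 were far above all controls, while PM2.5 replicate 3 was the lowest of the 6 libraries. Accordingly the log2 fold change of Akr7a5 was 0.51 (SE 0.47, adjusted p = 0.875) with all libraries and 0.59 (SE 0.54, adjusted p = 0.631) without control replicate 2. Akr1e1, which reduces anhydrofructose, had an FPKM of 6.14, 11.1 and 5.91 in control and of 4.40, 5.42 and 7.84 in PM2.5, with overlap. Control replicate 2 was its highest library, and the log2 fold change was -0.32 (SE 0.31) with all libraries and -0.06 (SE 0.22) without it. The steroid-active Akr1c14 and Akr1c13 were low, between 0.376 and 2.77 in every library, and overlapped between the groups. Their log2 fold changes were 0.11 and 0.23 with all libraries and 0.19 and -0.07 without control replicate 2, and 33.7% of the 31-base sequences of Akr1c13 were shared with other genes.

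**Figure D2:**
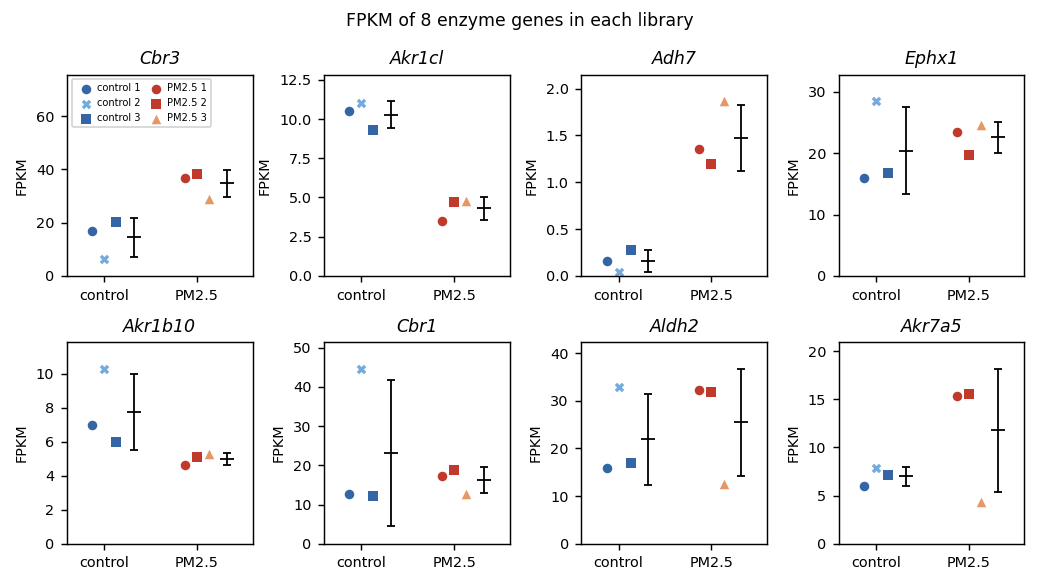
FPKM of 8 enzyme genes in each control and PM2.5 library (linear axes from 0), with the mean and SD (n = 3) of each group beside the points. Cbr3 and Adh7 are higher and Akr1cl and Akr1b10 lower in every PM2.5 library than in any control library, while for Aldh2 and Akr7a5 PM2.5 replicate 3 lies below all control libraries.

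Within the aldehyde dehydrogenases, 12 of 21 genes were tested, and none had an unadjusted p under 0.05 with all libraries. Aldh2, the mitochondrial enzyme that clears acetaldehyde and lipid-derived aldehydes, had an FPKM of 15.9, 33.0 and 16.8 in control and of 32.2, 31.8 and 12.6 in PM2.5. As for Akr7a5, PM2.5 replicates 1 and 2 were near each other and PM2.5 replicate 3 was the lowest library, while control replicate 2 was the highest. The log2 fold change was 0.18 (SE 0.46) with all libraries and 0.50 (SE 0.43, adjusted p = 0.610) without control replicate 2. Aldh18a1 had an FPKM of 44.2, 42.8 and 46.7 in control and of 50.6, 52.0 and 45.9 in PM2.5. The groups overlapped through PM2.5 replicate 3, with a log2 fold change of 0.15 (SE 0.18) with all libraries and 0.12 (SE 0.10) without control replicate 2.

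Aldh7a1, the antiquitin of lysine breakdown, was tight within the PM2.5 group, at an FPKM of 14.8, 15.2 and 14.9 against 13.1, 8.11 and 12.2 in control. All PM2.5 libraries were above all controls. The log2 fold change was 0.42 (SE 0.23, adjusted p = 0.875), or 0.23 (SE 0.09, unadjusted p = 0.0440, adjusted p = 0.304) without control replicate 2. Aldh1l2, the mitochondrial enzyme that oxidizes formyltetrahydrofolate, had an FPKM of 13.5, 1.39 and 13.2 in control and of 13.6, 14.2 and 13.5 in PM2.5. Although the groups did not overlap, 5 libraries were nearly equal and control replicate 2 was far below them, and the log2 fold change of 0.91 (SE 0.72) became 0.04 (SE 0.08, 95% interval -0.17 to 0.26) without that library.

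The opposite was seen for Aldh3b1, which oxidizes lipid-derived aldehydes at membranes, and for Aldh16a1, a member of the family held to lack catalytic activity. Aldh3b1 had an FPKM of 7.85, 24.5 and 9.91 in control and of 8.12, 9.74 and 6.61 in PM2.5. Aldh16a1 had an FPKM of 4.67, 14.5 and 4.13 in control and of 5.78, 5.28 and 3.10 in PM2.5. In both, control replicate 2 was far above all other libraries and the remaining controls overlapped with PM2.5. Their log2 fold changes were -0.57 and -0.46 with all libraries and -0.12 and 0.05 without control replicate 2.

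The other 6 aldehyde dehydrogenases tested were Aldh9a1 of carnitine synthesis, the fatty aldehyde dehydrogenase Aldh3a2, the retinaldehyde dehydrogenase Aldh1a1, Aldh4a1 of proline breakdown, Aldh5a1 of GABA breakdown and Aldh6a1 of valine breakdown. Aldh6a1 had an FPKM of 2.47, 2.07 and 2.81 in control against 1.36, 1.78 and 2.32 in PM2.5, with a log2 fold change of -0.30 (SE 0.20, adjusted p = 0.875) with all libraries and -0.38 (SE 0.17, adjusted p = 0.372) without control replicate 2. Aldh3a2, Aldh1a1 and Aldh5a1 were lowest in control replicate 2, and their differences had the opposite sign without it. Their log2 fold changes were 0.29 (SE 0.38), 0.21 (SE 0.37) and 0.08 (SE 0.21) with all libraries, and -0.12 (SE 0.08), -0.20 (SE 0.09) and -0.07 (SE 0.11) without that library. Aldh9a1 was at 0.07 (SE 0.20) and 0.20 (SE 0.09) in the same order, and Aldh4a1 at -0.07 (SE 0.16) and -0.01 (SE 0.09). None of these 6 had an unadjusted p under 0.05 in either comparison, and 31.03% of the 31-base sequences of Aldh4a1 were shared with other genes.

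Of the alcohol dehydrogenases, Adh5, the glutathione-dependent formaldehyde dehydrogenase, passed the filter. Its FPKM was 20.6, 10.8 and 21.2 in control and 21.0, 23.2 and 22.4 in PM2.5. Outside control replicate 2 the 5 libraries were close together, with a log2 fold change of 0.08 (SE 0.09, 95% interval -0.15 to 0.31), against 0.38 (SE 0.29) with all libraries.

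Adh7 (ENSMUSG00000055301, chr3:138217760-138233382, plus strand), an enzyme that oxidizes retinol and ethanol and is best known from the stomach lining, was below the filter because it was low in the control group. Its recovered reads were 11, 2 and 19 in control and 92, 80 and 128 in PM2.5, which gave an FPKM of 0.157, 0.0407 and 0.278 against 1.36, 1.19 and 1.87. The groups did not overlap. The mean FPKM was 0.158 ± 0.119 (SD, n = 3) in control and 1.47 ± 0.354 (SD, n = 3) in PM2.5, 9.30-fold higher, and 6.78-fold higher without control replicate 2. The summed reads, 300 in PM2.5 and 32 in control, were scaled by the depth implied by the deposited FPKM. Their ratio was 8.66 (95% interval 6.001 to 12.9), which covers counting error only. No p-value is given for Adh7, because a lower filter would admit it only through the PM2.5 group, where it was high. Of its 31-base sequences, 2.16% were shared with other genes.

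Ephx1, the microsomal epoxide hydrolase that acts on epoxides of polycyclic aromatic hydrocarbons, was the epoxide hydrolase that passed the filter. It had an FPKM of 15.9, 28.5 and 16.8 in control and of 23.4, 19.8 and 24.6 in PM2.5. Control replicate 2 was the highest library, and without it all PM2.5 libraries were above both controls. The log2 fold change of Ephx1 was 0.18 (SE 0.28, adjusted p = 0.877) with all libraries and 0.44 (SE 0.12, unadjusted p = 0.0155, adjusted p = 0.208) without control replicate 2.

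Counted over the group, 0 of the 26 tested genes had an adjusted p under 0.05 with all 6 libraries, against 0.0926% (11) of the 11884 genes tested. At an unadjusted p under 0.05 there were 2, Cbr3 and Akr1cl, against 3.8% of all tested genes. In the comparison without control replicate 2, 0 of 26 had an adjusted p under 0.05, against 0.993% (118) of all tested genes, and 5 of 26 (19.2%) had an unadjusted p under 0.05, against 15.9% of all genes. These 5 were Cbr3, Ephx1 and Aldh7a1 with positive and Akr1cl and Akr1b10 with negative values. The groups did not overlap for 5 of the 26 genes with all libraries, against 15.2% of all tested genes, namely Cbr3, Aldh7a1, Aldh1l2, Akr1cl and Akr1b10. Leaving out control replicate 2, they did not overlap for 10 of 26 (38.5%), against 37.3% of all genes. The median log2 fold change of the tested members was 0.14 with all libraries, where that of all tested genes was 0.02, and 0.02 without control replicate 2, where that of all tested genes was -0.01. A log2 fold change above 0 was found for 17 of the 26 genes with all libraries, against 51.9% of all genes, and for 13 of 26 without control replicate 2, against 48% of all genes. Without control replicate 2 the shares of the group were thus near those of all genes. With all 6 libraries 7.69% of the members had an unadjusted p under 0.05, against 3.8% of all genes. Groups without overlap made up 19.2% against 15.2%, and values above 0 made up 65.4% against 51.9%. Whether the group differed from all genes was not tested.

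**Figure D3:**
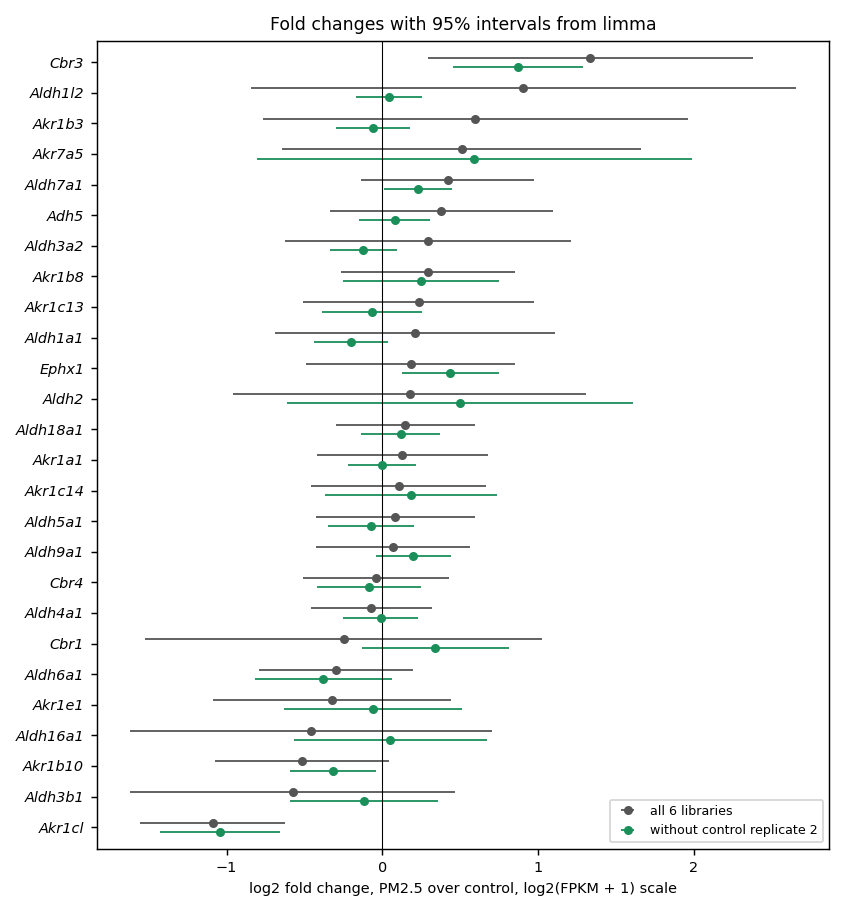
Log2 fold changes of the 26 tested genes, PM2.5 over control on the log2(FPKM + 1) scale, with 95% intervals from limma for all 6 libraries (grey) and without control replicate 2 (green). The Cbr3 and Akr1cl intervals lie on 1 side of 0 in both fits, and Aldh1l2 moves from 0.91 to 0.04 when the library is left out.

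Control replicate 2 and PM2.5 replicate 3 differed from the other libraries of their groups for many of these genes. Control replicate 2 was outside the range of the other 5 libraries for 22 of the 26 genes (84.6%), against 82.9% of all tested genes. Against the mean of control replicates 1 and 3, on the log2(FPKM + 1) scale, it was lower by over 1 for Aldh1l2, Akr1b3, Cbr3, Aldh3a2 and Aldh1a1, and higher by over 1 for Cbr1, Aldh16a1 and Aldh3b1. Genes of the same family thus lay on both sides in that library. PM2.5 replicate 3 was outside the range of the rest for 9 of 26 genes (34.6%), against 40.3% of all tested genes, and Akr7a5 and Aldh2 were furthest below PM2.5 replicates 1 and 2.

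**Figure D4:**
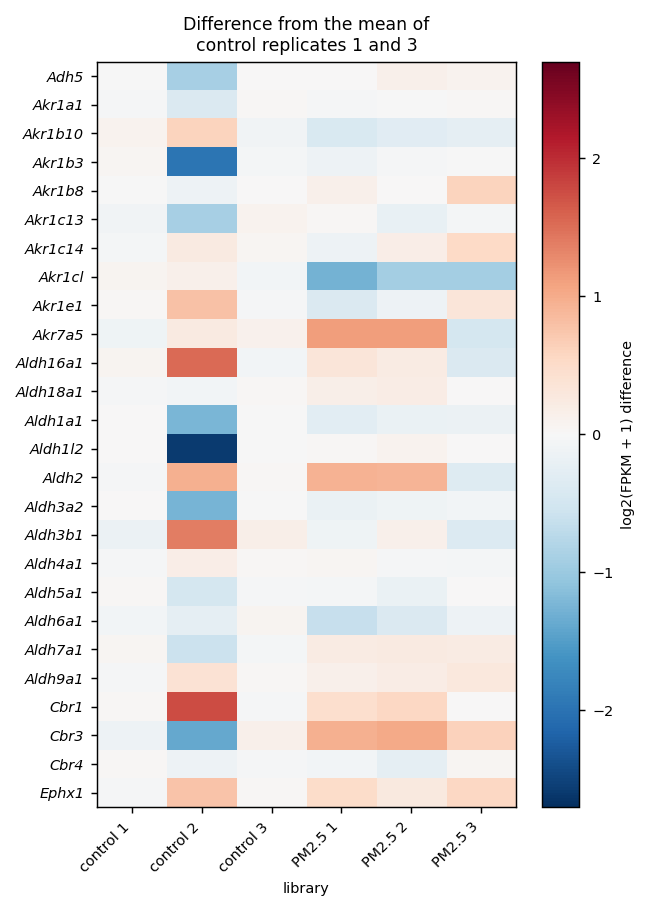
Difference of each library from the mean of control replicates 1 and 3 on the log2(FPKM + 1) scale (colour, blue lower and red higher) for the 26 tested genes. The column of control replicate 2 holds the deepest colours, from -2.59 for Aldh1l2 to 1.76 for Cbr1, and Cbr3 is red in all PM2.5 columns while Akr1cl is blue in all of them.

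Some differences between libraries varied with the GC content of the genes, to unequal degrees. Across the 26 genes, which are not independent replicates and share the same libraries, the difference of PM2.5 replicate 3 from PM2.5 replicates 1 and 2 had a Spearman's rho of -0.74 with GC content, and rho was -0.73 across 11735 genes. The difference of PM2.5 replicates 1 and 2 from control replicates 1 and 3 had a rho of 0.77 with GC content across the 26 genes and of 0.54 across all genes. With PM2.5 replicate 3 included, that rho was 0.60 across the 26 genes and 0.34 across all genes. The difference of control replicate 2 from control replicates 1 and 3 had a rho of 0.28 across the 26 genes and of 0.35 across all genes. With exon length, rho was -0.38 for PM2.5 replicates 1 and 2 and -0.44 for all 3 PM2.5 libraries across the 26 genes, against -0.17 and -0.18 across all genes. For control replicate 2 the rho with exon length was -0.31 across the 26 genes and -0.30 across all genes. The exons of Akr7a5, Cbr3 and Aldh2 had a GC content of 59.0%, 56.1% and 55.8%, and those of Akr1cl and Adh7 had 44.4% and 42.6%. A fit corrected for GC content and exon length, chosen after seeing the data, called 0 of 26 genes with all 6 libraries, against 0.136% of all genes. It called 2 of 26 without control replicate 2, Cbr3 with a log2 fold change of 0.73 (SE 0.09, adjusted p = 0.0162) and Akr1cl with -0.95 (SE 0.12, adjusted p = 0.0194), against 7.82% of all genes. With all 6 libraries the corrected limma fit gave Cbr3 1.51 (SE 0.66, unadjusted p = 0.0661), which was no longer under 0.05. Akr1cl was then at -1.15 (SE 0.22, unadjusted p = 0.00218). The part of GC content in the uncorrected differences was not tested beyond this fit.

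When PM2.5 replicate 3 was left out beside control replicate 2, which left 2 libraries against 2, 11 of the 26 genes (42.3%) had an adjusted p under 0.05, against 47.1% of all tested genes. Akr7a5 then had a log2 fold change of 1.13, Cbr3 of 0.99, Aldh2 of 0.93, Cbr1 of 0.50 and Ephx1 of 0.38, and the other genes with positive values were Aldh16a1, Aldh18a1 and Aldh7a1. Akr1cl, Aldh6a1 and Akr1b10 were lower, at -1.10, -0.50 and -0.35. The share of called members was near that of all genes here too.

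Below the filter, 7 of the 26 genes had no read in any library, namely Akr1c18, Akr1c6, Akr1c19, Akr1d1, Aldh3b3, Adh6a and Adh6b. A count of 0 allows up to 3 reads, in a library of 16209352 to 18003200 reads. Another 15 genes had at most 7 reads in any library, among them the retinaldehyde dehydrogenases Aldh1a2, with at most 3 reads, and Aldh1a3, with at most 2. The other 4 were Adh7, Aldh1l1, Ephx2 and Cbr2. Aldh1l1, the cytosolic counterpart of Aldh1l2, had 78, 43 and 70 reads in control and 102, 84 and 67 in PM2.5, with overlap. Ephx2, the soluble epoxide hydrolase, had 7, 20 and 17 reads in control and 17, 20 and 14 in PM2.5, which overlapped as well. Cbr2, a mitochondrial carbonyl reductase known from lung, had 2, 7 and 12 reads in control and 1 read in each PM2.5 library. The ratio of control to PM2.5, scaled as for Adh7, was 7.58 with a 95% interval of 2.26 to 39.7, from 21 reads against 3. That interval covers counting error only and leaves out the spread between the control libraries, from 2 to 12 reads.

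Of 33 other enzymes of carbonyl and aldehyde metabolism, 26 were tested. With all 6 libraries, 0 had an adjusted p under 0.05, and 5 had an unadjusted p under 0.05 with positive values, against 1.92% of all tested genes. They were Xdh, xanthine dehydrogenase, with a log2 fold change of 1.95 (SE 0.25, adjusted p = 0.121), the glutathione transferase Gsta4 with 1.16 (SE 0.26), the quinone reductase Nqo1 with 1.03 (SE 0.23), Esd, which hydrolyses the formylglutathione made by Adh5, with 0.81 (SE 0.31), and the monoamine oxidase Maoa with 0.50 (SE 0.18). Without control replicate 2, Xdh rose, with an FPKM of 4.45 and 4.28 in control against 18.1, 17.3 and 14.9 in PM2.5 and a log2 fold change of 1.73 (SE 0.11, adjusted p = 0.0103). At an unadjusted p under 0.05, 9 then had positive values, against 8.23% of all tested genes, including Gstm1, Park7, Rdh13 and Sord beside the former 5, and Dcxr had a negative value of -0.46. The median log2 fold change of this list was 0.15 with all libraries and 0.14 without control replicate 2, against 0.02 and -0.01 over all tested genes. Nqo1 had an FPKM of 19.6, 24.7 and 18.9 in control and of 37.5, 42.2 and 53.3 in PM2.5, and its adjusted p was 0.0652 without control replicate 2.

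Of 16 genes of retinoid handling (binding proteins, receptors and retinoic acid hydroxylases), 5 were tested and none had an unadjusted p under 0.05 in either comparison, with a median log2 fold change of -0.23 with all libraries and 0.10 without control replicate 2. Of 14 regulators and known targets of AhR and NRF2, 13 were tested. Cyp1a1, the classic AhR target, was listed at an FPKM of 0.0387, 0 and 0 in control and of 6.15, 6.11 and 7.94 in PM2.5. It rose in both comparisons, with a log2 fold change of 2.92 (SE 0.18, adjusted p = 0.0301) with all libraries, a value that depends on the pseudocount. Cyp1b1 and Hmox1 rose without control replicate 2, with log2 fold changes of 1.501 (SE 0.10, adjusted p = 0.0103) and 2.03 (SE 0.17, adjusted p = 0.0185). Positive values at an unadjusted p under 0.05 were also found for Tiparp, Gclc and Slc7a11 in both comparisons and for Gclm, Nfe2l2, Srxn1 and Txnrd1 without control replicate 2, where Arnt was at -0.26. Of the 26 enzyme genes that passed the filter, Cbr3 and Akr1cl had an unadjusted p under 0.05 in both comparisons.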

How the data were processed

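RNA of 6 GC-2spd libraries, 3 control and 3 PM2.5, was grouped by the sample labels. The authors prepared libraries with the NEBNext Ultra kit, mapped the reads with HISAT2 2.0.5 and counted them with featureCounts 1.5.0-p3. The submitters' processing notes name the build mm9, but the gene lengths behind the deposited FPKM were those of GENCODE M21 on GRCm38. The authors deposited FPKM per gene, and called differential expression with DESeq2. Whether counting used strand is not given in the sources used here.

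Reads were recovered from FPKM and exon length, and 98.3% to 98.7% of the values under 50 reads were whole within 0.1 read in each library. Of 25249 expressed genes with a length, 96.9% were whole in all libraries. The recovered totals of 16209352 to 18003200 reads gave the depth and a floor of 3 reads. The read ratios of Adh7 and Cbr2 were instead scaled by the depth implied by the deposited FPKM. Intervals and floors cover counting error only. The filter was a mean FPKM of 1 over all libraries, and log2(FPKM + 1) was compared in R 4.3.3 by limma 3.58.1 with its trend and robust settings (statmod 1.5.0), two-sided, with Benjamini-Hochberg adjustment over all 11884 genes and a threshold of 0.05. The code was tested on simulated data. Shared sequence was counted in runs of 31 bases that occur in more than 1 gene. Promoters came from RefSeq on GRCm38.p6.

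Members, lists and tests were chosen with earlier results of these data known. Every tested member is named. Values in every library are given for those with an unadjusted p under 0.05 with all libraries or an adjusted p under 0.05 without control replicate 2, for the 5 largest log2 fold changes in each direction, and for the highest member of each family. Members under the filter were given by library with at least 10 reads in one, or without overlap and at least 10 reads in all. Aldh1a2, Aldh1a3 and the genes at 0 are named outside this rule. Of the lists, genes with an unadjusted p under 0.05 are named. Aldh2, Cbr1, Akr1b8 and Aldh6a1 were given by library after their values were seen. Alternatives were another pseudocount, other filters, scaling to recovered totals, quantile normalization, voom on recovered reads, a replicate block, leaving out each library and, added later, a GC and length correction with splines of 5 degrees of freedom.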

Additional observations from a re-analysis of the deposited data

How the results depend on the processing

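With all 6 libraries, no alternative gave any of the enzyme genes an adjusted p under 0.05. The 11 genes called over the whole table became 0 without a filter (875 at an unadjusted p under 0.05), 6 with scaling to recovered totals, 0 with voom on recovered reads (403 unadjusted) and 0 with the replicate block (335 unadjusted). Leaving out 1 library gave 0 to 118 genes, the 118 being without control replicate 2. The other leave-outs gave 0, with 197 to 627 at an unadjusted p under 0.05. The median log2 fold change of the enzymes, 0.14, became 0.023 without a filter, 0.27 with scaling to totals and 0.28 with voom, and 0.021 to 0.14 with 1 library left out, lowest without control replicate 2. Scaling to totals moved the median of all genes from 0.02 to 0.13. Small values changed sign. Aldh4a1 was at 0.026 with scaling to totals and 0.036 with voom, Cbr4 at 0.022 and 0.041, and Aldh5a1 at -0.013 with the GC and length correction.

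With 1 library left out, the log2 fold change ranged from -0.061 to 0.95 for Akr1b3, -0.74 to 0.052 for Aldh16a1, -0.12 to 0.50 for Aldh3a2, -0.067 to 0.43 for Akr1c13, -0.017 to 0.20 for Aldh9a1, -0.0017 to 0.21 for Akr1a1, -0.041 to 0.60 for Aldh2, -0.11 to 0.032 for Cbr4, -0.065 to 0.27 for Akr1c14, -0.074 to 0.18 for Aldh5a1, -0.55 to 0.34 for Cbr1 and -0.20 to 0.42 for Aldh1a1. Of Cbr3 it stayed between 0.87 and 1.63 and of Akr1cl between -1.15 and -0.97. The causes were not tested.

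Without control replicate 2, voom called 1 enzyme gene (3.85%), Akr1cl, against 1.28% of the 11740 genes in that fit. The GC and length correction called 2 (7.69%), against 7.82% of all genes. Leaving out a further library called 0 to 11, the 11 being without PM2.5 replicate 3, where 47.1% of all genes were called. Over all genes, 118 became 41 without a filter, 150 with voom, 918 with the correction, and 0 to 5602 with a further library left out. Adjusted p over these settings ranged from 0.00128 to 0.814 for Cbr3 and from 0.00264 to 0.668 for Akr1cl.

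The labels number the replicates but state no pairing, and the correlation of same-numbered deviations was -0.28, 0.18 and 0.25. These values cannot settle whether the samples were paired, because control replicate 2 and PM2.5 replicate 3 stood apart within their groups. The replicate block called 0 enzyme genes in both comparisons, and 92 genes in all without control replicate 2. Depth limited genes near the floor of 3 reads, such as Cbr2.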
